A study of Rattus norvegicus with 2 samples.

Results

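Transcripts of 10 integrin genes were measured in 2 populations of rat natural killer (NK) cells, and 9 of the 10 were read by 10 of the 31099 probe sets on the array. They were the beta chains Itgb1, Itgb2, Itgb3 and Itgb7 and the alpha chains Itga1, Itga4, Itgae, Itgal, Itgam and Itgax, and every probe set that the platform annotation gave to one of these symbols was taken. No probe set carried the symbol Itga4, so this gene was not analysed here, and 0 probe sets were shared between a member and another gene. The cells were splenic NK cells of PVG.7b rats aged 8 to 12 weeks, 9 animals in all, enriched by bead depletion and then sorted as CD3-, NKR-P1A+ cells of above 90% purity. The NKR-P1B+ group was positive for NKR-P1B, an inhibitory lectin-like receptor, and negative for Ly49s3. The Ly49s3+ group was positive for Ly49s3, an activating receptor of the Ly49 family, and negative for NKR-P1B. The labels name no treatment of the animals. Each group was 1 array, so there was no replicate, no p-value could be computed, and every difference describes these 2 arrays. The sources used here do not say how RNA from the animals was pooled.

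Integrins are adhesion receptors made of 1 alpha and 1 beta chain, and the pair decides what a cell binds. In lymphocytes the beta-2 chain joins the alpha-L, alpha-M, alpha-X or alpha-D chain and binds ICAM molecules and complement fragments, the beta-1 chain joins many alpha chains that bind collagen, fibronectin or VCAM-1, and the beta-7 chain joins alpha-4 or alpha-E, which bind MAdCAM-1 and E-cadherin. The beta-3 chain joins alpha-V, which binds vitronectin and osteopontin, or alpha-IIb, the fibrinogen receptor of platelets. NK cells use integrins to leave the blood, to stay in tissue and to hold a target cell while they kill it.

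Of the 9 genes with a probe set, 8 were above the floor on both arrays and 1, Itgal, was below it on both. The floor was a signal of 20.4, the 50th percentile of all signals, and lower signals were set to it before a ratio was taken. Signals are in arbitrary units, and a pair joined by "and" gives NKR-P1B+ first, while a pair joined by "against" gives the higher one first. The beta chains Itgb3 and Itgb7 were 4.39-fold and 2.36-fold higher in NKR-P1B+ cells. The other 6 measured genes were within 1.5-fold, 5 of them nominally higher in NKR-P1B+ cells and Itgae nominally higher in Ly49s3+ cells. Thus 2 of 8 measured integrin genes, 25%, were at least 1.5-fold higher in NKR-P1B+ cells, against 5.06% of all 9114 measured genes. None was at least 1.5-fold higher in Ly49s3+ cells, against 5.72% of all measured genes. At the 2-fold threshold the same 2 genes were counted as higher in NKR-P1B+ cells, against 1.78% of all measured genes, and 0 in Ly49s3+ cells, against 1.21%. The members were chosen with earlier results of these data known, so these shares describe the list and are no test of it. Taken as NKR-P1B+ minus Ly49s3+, the median log2 difference was 0.28 over the 8 genes and −0.02 over all measured genes. When the arrays were scaled to their poly-A spikes instead, the median of all measured genes became 0.46, that of the 8 integrin genes 0.77 and Itgae turned to 0.37, with 7 of the 8 genes and 32.9% of all measured genes past 1.5-fold toward NKR-P1B+ cells. Directions and counts, those of the pathway lists included, are thus relative to the deposited scale. In sorted bulk RNA a higher signal from more cells that carry a transcript and one from more transcript per cell cannot be told apart.

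**Figure D1:**
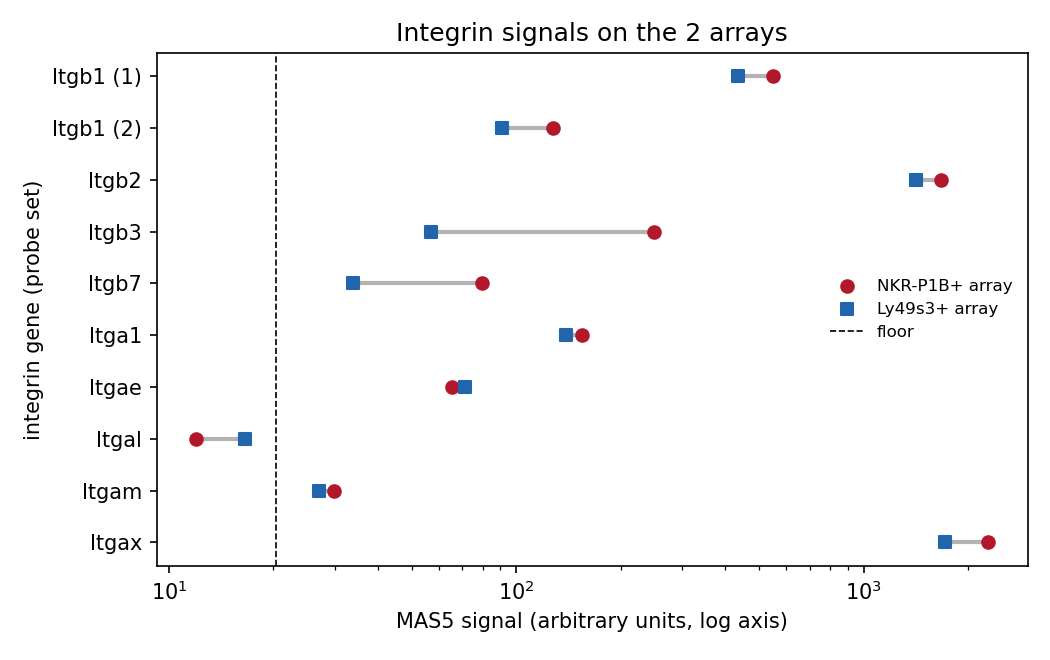
MAS5 signal in arbitrary units on a log axis for the 10 integrin probe sets, with the NKR-P1B+ array as circles, the Ly49s3+ array as squares and the floor of 20.4 as a dashed line. The Itgb3 and Itgb7 pairs lie farthest apart among the measured probe sets, the Itgal pair lies below the floor, and signals of different probe sets are not comparable with each other.

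Since no array was repeated, differences were set against the disagreement between 2 probe sets of the same gene, which share the RNA and the arrays and so leave out variation between animals, sorts and hybridisations. The SD of the gap between the log2 differences of the 2 probe sets was divided by the square root of 2. This gives the SD of 1 probe set if both vary alike and independently, and is smaller than the SD of the gap itself. The SD per probe set was 0.38 for gene pairs with a mean signal below 50, 0.32 from 50 to 100 and 0.25 from 100 to 200. It was 0.21 from 200 to 500 and 0.17 above 500. These values came from 171, 506, 571, 504 and 241 genes. The log2 difference of Itgb3 was 8.53 times the SD of its signal range and that of Itgb7 was 3.89 times. Itgax was at 2.41 times and the other measured probe sets were below 2 times.

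**Figure D2:**
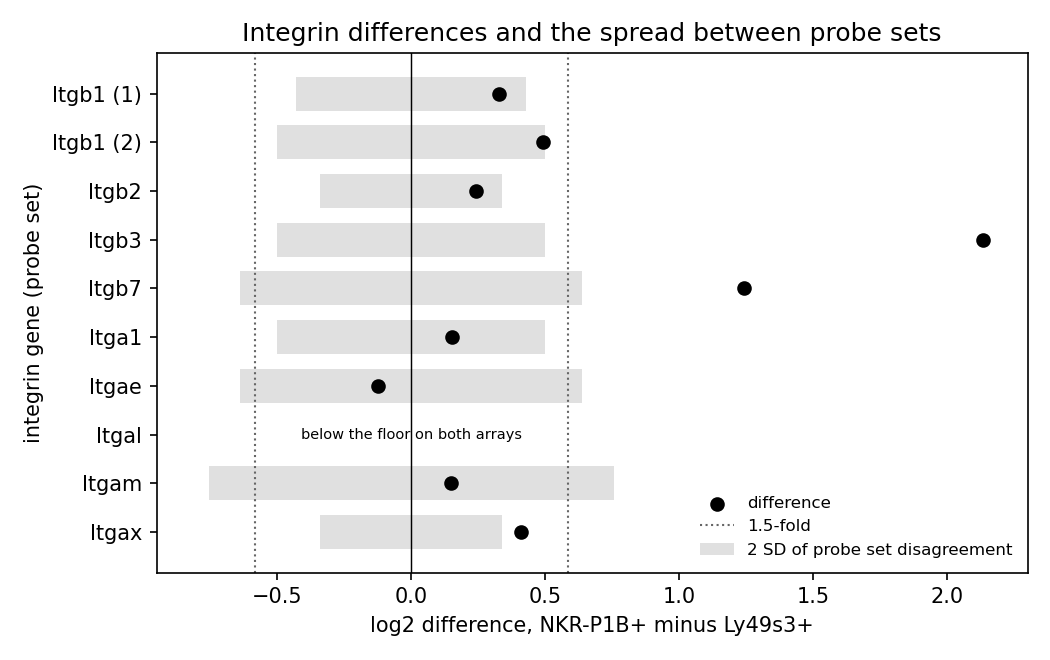
Log2 difference, NKR-P1B+ minus Ly49s3+, for each integrin probe set (points), with dotted lines at 1.5-fold. Grey bars are at 2 SD per probe set, from the disagreement between probe sets of the same gene in the same signal range. Itgb3 (2.13) and Itgb7 (1.24) lie beyond both, Itgax (0.41) lies beyond its grey bar but within 1.5-fold, and Itgal has no point because it was below the floor on both arrays.

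The beta-3 gene Itgb3 gave 250.0 in NKR-P1B+ cells and 57.0 in Ly49s3+ cells. Both signals were above the floor, and the log2 difference was 2.13. Of the 8286 genes above the floor on both arrays, 11 had a larger excess in NKR-P1B+ cells, which is 0.133%, and among 1747 genes whose mean log2 signal lay within 0.5 of that of Itgb3 there were 4. It was read by 1 probe set, so no other probe set of the gene could be compared. The alpha-V gene Itgav, whose chain is a partner of beta-3, was nominally higher on the same array on all 3 of its probe sets, with signals of 76.5, 69.7 and 34.9 against 52.2, 55.3 and 30.8. Its log2 differences of 0.55, 0.33 and 0.18 were below the 1.5-fold threshold. The other partner gene, Itga2b, which marks platelets and their precursors, was below the floor on both arrays at 20.2 and 3.6.

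Platelets carry beta-3, so their markers were examined beside Itgb3. Of 8 platelet marker genes with a probe set, 6 were below the floor on both arrays. They were Gp5 (3.0 and 2.9) and Gp9 (4.3 and 3.8), which encode parts of the receptor for von Willebrand factor, and 4 more. Those were Itga2b (20.2 and 3.6), Ppbp (4.9 and 16.6), Tubb1 (15.2 and 11.8) and Clec1b (2.9 and 6.2). The other genes were near the floor. The chemokine gene Pf4 had 30.9 in NKR-P1B+ cells and 26.6 in Ly49s3+ cells, and Treml1 had 15.9 and 30.4. The summed signal of the 8 genes, with signals below the floor added as deposited, was 97.3 in NKR-P1B+ cells and 101.9 in Ly49s3+ cells. Without Treml1 it was 81.4 and 71.5, a sum that still holds Itga2b at 20.2 and 3.6. The direction of the sum thus depended on single genes near or below the floor. The part of platelets in the Itgb3 difference was not tested.

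Likeness to Itgb3 over 2 arrays can only be likeness of the difference. The 3 genes above the floor on both arrays with the nearest log2 difference were Ms4a20 (2.12, with signals of 229.9 and 53.0), the progranulin gene Grn (2.15, 138 and 31.1) and Prrt1 (2.19, 149.6 and 32.8). All 3 were higher in NKR-P1B+ cells, as the measure requires.

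The beta-7 gene Itgb7 had a signal of 79.9 in NKR-P1B+ cells and 33.8 in Ly49s3+ cells, a log2 difference of 1.24 on its single probe set. Of the genes above the floor on both arrays, 77, or 0.929%, had a larger excess in NKR-P1B+ cells, and among 1380 genes of like mean signal there were 27. With the floor raised to 52.8, the 65th percentile, the Ly49s3+ signal lay below the floor and the log2 difference became a bound of 0.60. The alpha-E gene Itgae, which encodes the CD103 chain found on intraepithelial lymphocytes and some dendritic cells, had 65.4 in NKR-P1B+ cells and 71.2 in Ly49s3+ cells. This log2 difference of −0.12 was smaller than the spread between probe sets. On the deposited scale the beta-7 gene thus differed beyond this spread and the gene of its partner alpha-E did not, each on 1 probe set. The other partner gene, Itga4, was not analysed. Of the ligand genes, E-cadherin (Cdh1) had 50.8 and 38.8, and Madcam1 was below the floor at 11.5 and 15.9.

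The promoter windows of Itgb7 and Itgae are shown because their chains form 1 receptor, while only Itgb7 differed beyond the spread between probe sets. Each window is the 250 bases before the gene's start on the gene's strand, from RefSeq on GRCr8. Capitals mark GGAAG, a core of ETS factor sites, and TGTGGT, a RUNX site, on either strand (CTTCC and ACCACA on the other one). RUNX factors are known to act on Itgae in mouse T cells.
Itgb7, chr7:135239072-135239321, minus strand: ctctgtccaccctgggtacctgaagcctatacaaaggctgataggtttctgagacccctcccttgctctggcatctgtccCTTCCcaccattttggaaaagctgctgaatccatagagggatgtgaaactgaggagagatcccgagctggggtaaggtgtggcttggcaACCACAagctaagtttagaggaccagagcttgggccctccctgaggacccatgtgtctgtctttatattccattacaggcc
Itgae, chr10:58203118-58203367, plus strand: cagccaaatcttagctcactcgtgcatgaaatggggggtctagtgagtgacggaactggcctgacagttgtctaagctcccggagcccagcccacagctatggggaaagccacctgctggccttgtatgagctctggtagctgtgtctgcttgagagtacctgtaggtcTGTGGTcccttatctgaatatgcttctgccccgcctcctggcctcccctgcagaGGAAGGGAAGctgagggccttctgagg
The Itgb7 window held 1 match to the ETS core and 1 to the RUNX motif, and the Itgae window held 2 and 1, with no overlap between the motifs. Of 33469 rat promoter windows of this length, 63.3% held the ETS core and 14.5% the RUNX motif on either strand. Of the 7 integrin genes with a window, 6 held the ETS core and 4 the RUNX motif. Itga4, which had no probe set, is among the 7, and its window held 0 and 1 matches. A match is a run of letters and was not tested as a binding site.

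The beta-2 gene Itgb2, whose chain is CD18, had signals of 1677 in NKR-P1B+ cells and 1419 in Ly49s3+ cells. This 1.18-fold difference, 0.24 in log2, was within 2 SD per probe set. Its alpha partners were read by 1 probe set each. The alpha-X gene Itgax, which encodes CD11c, had 2281 and 1716, 1.33-fold higher in NKR-P1B+ cells. Its log2 difference of 0.41 exceeded 2 SD per probe set, 0.34 at this signal, but not by much. A larger excess was seen in 764 genes, 9.22% of those above the floor on both arrays. The alpha-M gene Itgam, which encodes CD11b, was close to the floor on both arrays at 29.9 and 27.0. Its log2 difference of 0.15 was below 1 SD. The alpha-D gene Itgad had 1352 and 1204, with a log2 difference of 0.17. In the RefSeq gene order Itgam, Itgax and Itgad follow each other with 0 protein-coding genes between neighbours. Their sequences are related, Itgax stands as an older name of Itgad in that table, and whether the probe sets of these genes share signal was not tested.

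The alpha-L gene Itgal, which encodes the LFA-1 chain by which NK cells bind ICAM-1 on their targets, had signals of 12.0 in NKR-P1B+ cells and 16.6 in Ly49s3+ cells. Both were below the floor, so no ratio is given, and this single probe set could not show whether the transcript differed. The ligand gene Icam1 was 1.81-fold higher in NKR-P1B+ cells, with 364 against 201.1. Icam2, which encodes another LFA-1 ligand, had 800.1 and 819.9.

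The beta-1 gene Itgb1 was the only member with 2 probe sets, and both were higher in NKR-P1B+ cells. The first had 548 against 436, a log2 difference of 0.33, and the second had 127.9 against 91.0, a difference of 0.49. Each was within 2 SD per probe set at its signal, and the probe sets differed from each other by less than that spread. On the first, 13.0% of the genes above the floor on both arrays had a larger excess in NKR-P1B+ cells. The alpha-1 gene Itga1, whose chain CD49a binds collagen with beta-1 and marks tissue-resident NK cells and type 1 innate lymphoid cells in mouse liver, had 154.5 and 139. Its log2 difference of 0.15 was below 1 SD. Neither chain of the collagen receptor thus differed beyond the threshold of 1.5-fold.

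Among the other integrin alpha chains, 5 of 10 genes with a probe set were measured. Of these, 4 were within 1.5-fold (Itga3, Itga5, Itgad and Itgav). The exception was Itga9, whose chain pairs with beta-1 and binds VCAM-1 and osteopontin, and which was 1.82-fold higher in Ly49s3+ cells with 63.3 against 34.8. Its other probe set was below the floor at 2.9 and 2.8. The 3 other beta chain genes with a probe set, Itgb4, Itgb5 and Itgb6, were below the floor on both arrays. Itga6, which has 4 probe sets, was below it on all of them.

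Genes that switch integrins on and off, and those that act after binding, are given next. Of all 8286 genes above the floor on both arrays, 90.3% were within 1.5-fold. Of 15 such activator genes 14 were, including the talin gene Tln1 (397 and 386), the kindlin-3 gene Fermt3 (282 and 348) and the GTPase genes Rap1a (1677 and 1792) and Rap1b (3227.5 and 3361). The kinase gene Stk4, which encodes MST1 and acts downstream of RAP1 in lymphocyte adhesion, was 1.99-fold higher in Ly49s3+ cells (331.5 against 166.9), but its 2 probe sets disagreed, with log2 differences of −0.99 and −0.32. The kindlin-2 gene Fermt2 was above the floor in NKR-P1B+ cells alone (25.1 and 13.1), so its fold is only bounded. All 8 inhibitor genes were within 1.5-fold, among them Flna, whose product filamin competes with talin for beta tails (1249 and 1301), Rap1gap2, which switches RAP1 off (1337 and 1162), and Sharpin (354 and 342). So were all 23 adhesion signalling genes above the floor on both arrays, with Coro1a (3409 and 3724) and Cdc42 (3401.5 and 3313) the brightest, while the kinase gene Src (22.9 and 11.8) has only a bound. The list medians, with these bounds included, were −0.03, −0.01 and −0.01, beside −0.02 for all measured genes.

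Among 7 measured ligand genes, Icam1 was at least 1.5-fold higher in NKR-P1B+ cells and Jam2, a junction molecule, in Ly49s3+ cells (41.6 against 21.0, with its 4 other probe sets below the floor). The 10 measured membrane partner genes had a median log2 difference of 0.34, and 3 of them were at least 1.5-fold higher in NKR-P1B+ cells. They were the urokinase receptor gene Plaur (1.99-fold, 72.2 against 36.2) and the tetraspanin genes Cd37 (1.58-fold, 613 against 388) and Cd151 (1.57-fold, 149.5 against 95.1). The other probe set of Plaur was below the floor at 9.8 and 2.7. Cd151 is known to bind laminin-binding integrins of the beta-1 class. The tetraspanin gene Cd82 was just past the 1.5-fold threshold in the other direction, at 48.2 in NKR-P1B+ cells and 72.5 in Ly49s3+ cells. The brightest members Cd53 (3046 and 2248) and Cd81 (1070 and 981) were within 1.5-fold. Over the 7 pathway lists, the 1.5-fold threshold was passed toward NKR-P1B+ cells by 4 of 70 measured genes and toward Ly49s3+ cells by 4, 5.71% each, near the 5.06% and 5.72% of all measured genes.

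**Figure D3:**
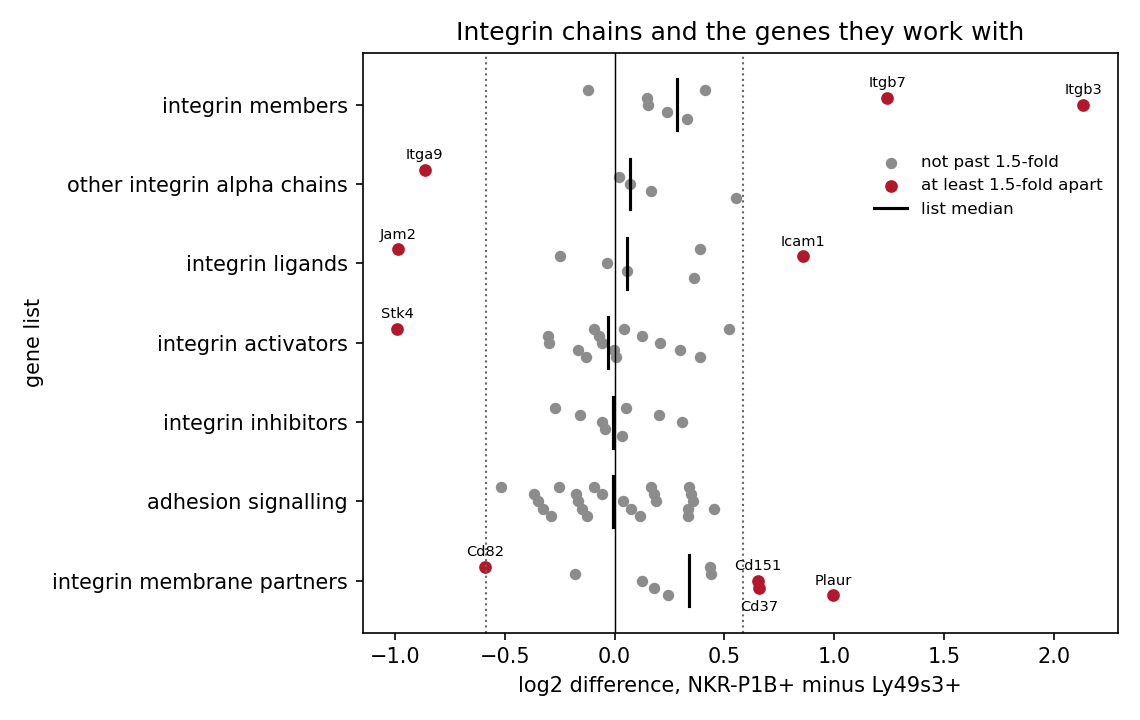
Log2 difference, NKR-P1B+ minus Ly49s3+, for each measured gene (points) of the integrin members and of 6 pathway lists that had measured genes, with vertical bars at list medians and dotted lines at 1.5-fold. Genes at least 1.5-fold apart are named, the inhibitor and adhesion signalling lists have none, and the points of Fermt2 and Src are lower bounds.

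The labelled cell type was checked by its markers. All 8 NK genes with a probe set were above the floor on both arrays, including Klrb1a, which encodes NKR-P1A (3740 and 3813), and the perforin gene Prf1 (4023.5 and 3006), and Gzmb was 1.56-fold higher in NKR-P1B+ cells (3973 against 2549). The T cell genes Cd3d and Cd3e were below the floor, Cd3g had 22.3 in NKR-P1B+ cells and 42.9 in Ly49s3+ cells, and Cd5 and Cd6 were higher in NKR-P1B+ cells (92.7 against 40.8, and 273 against 179). Of 5 B cell genes only Cd22 was measured (103.0 against 52.9), and Cd79b and Ms4a1 were below the floor. Mast cell and neutrophil genes were below the floor but for Cpa3, which was at 21.0 in Ly49s3+ cells. Among erythroid genes Hbb was higher in NKR-P1B+ cells (276 against 153) and Hemgn in Ly49s3+ cells (131 against 50.6). Among stromal and endothelial genes, Kdr was the only one measured (54.1 against 11.8), and Pecam1 was below the floor. The other probe set of Kdr was below the floor at 6 and 8.2.

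Itgax, Itgam, Itgae and Itgb7 are also carried by myeloid and dendritic cells, and some markers of such cells were higher in NKR-P1B+ cells. The MHC class II gene RT1-Da was 3.54-fold higher there (346 against 97.7), Cd74 1.64-fold (197 against 120.0), RT1-Db1 at least 2.07-fold (42.3 against 17.4) and the lysozyme gene Lyz2 2.68-fold (356 against 133). The other probe set of RT1-Db1 was below the floor at 4.4 and 3.6. Batf3, a factor of conventional dendritic cells, was at least 4.08-fold higher in Ly49s3+ cells (83.2 against 4.2). The MHC class II gene RT1-Ba had 30.2 and 36.7, and RT1-Bb was at least 1.45-fold higher in NKR-P1B+ cells (29.5 against 7.4). Summed signals were 667 and 381 over 9 dendritic and antigen-presenting cell genes. The sums add deposited signals of different probe sets, those below the floor included, and do not measure cell content. Without RT1-Da they were 322 and 283.5, with Batf3 (4.2 and 83.2) still included. Without Batf3 but with RT1-Da they were 663 and 298. Over 10 monocyte and macrophage genes they were 414 and 208, but Lyz2 alone made this difference. The other 9 genes, all below the floor on both arrays, summed to 58.1 and 74.8. Of these lists 3 and 9 genes were below the floor on both arrays, among them Flt3 (0.9 and 0.8), Clec9a (5.5 and 0.8), Csf1r (14.8 and 14.7), Cd68 (12.9 and 8.5) and Adgre1 (0.3 and 4.0). The part of such cells in the Itgb7, Itgax and Itgb3 differences was not tested.

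**Figure D4:**
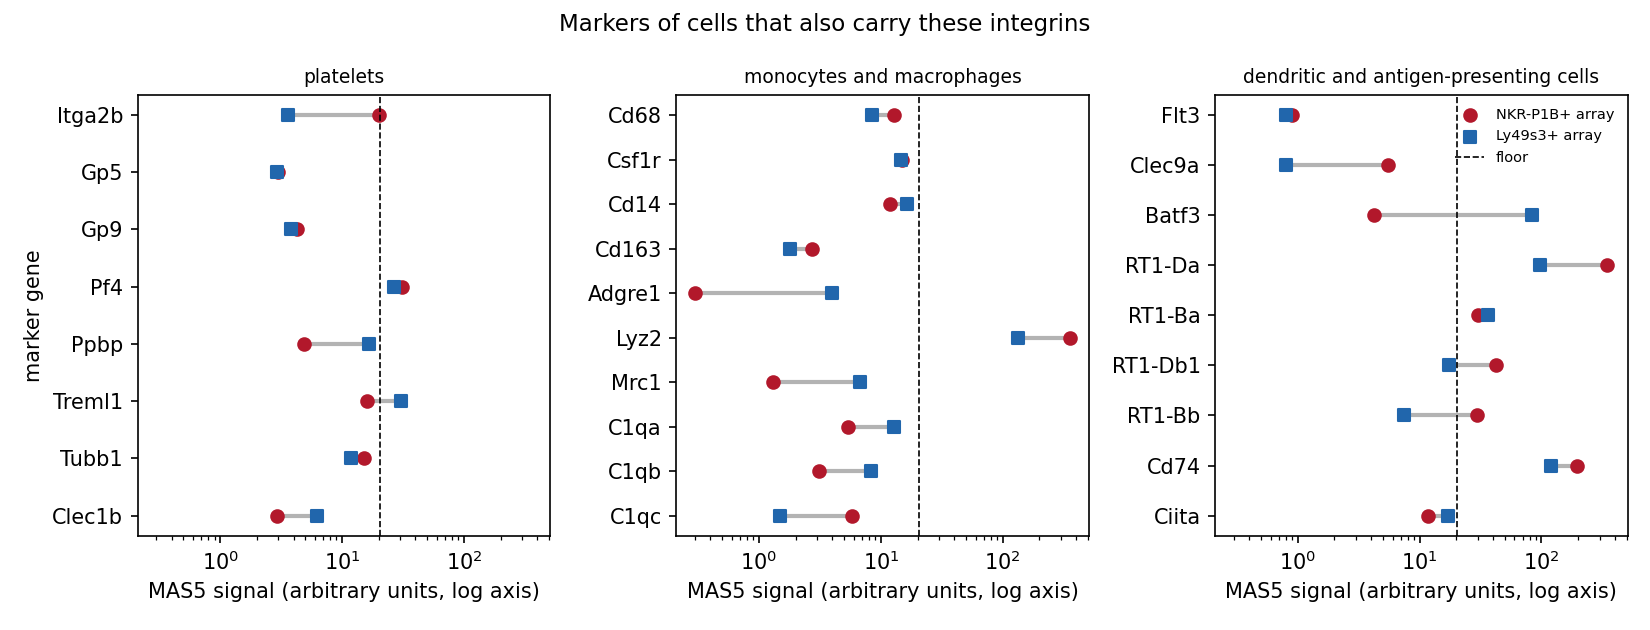
MAS5 signal in arbitrary units on a log axis for marker genes of platelets, of monocytes and macrophages, and of dendritic and antigen-presenting cells, with the NKR-P1B+ array as circles, the Ly49s3+ array as squares and the floor of 20.4 as a dashed line. Platelet markers lie near or below the floor on both arrays, Lyz2, RT1-Da, RT1-Db1, RT1-Bb and Cd74 lie higher in NKR-P1B+ cells, and Batf3 and RT1-Ba lie higher in Ly49s3+ cells.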

How the data were processed

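The deposited values are linear microarray intensity values, 1 per probe set and array, from MAS5 per the submitters' processing notes. Biotinylated cRNA came from 3 ug of total RNA, per the labels. The sources used here do not give the MAS5 version, its scaling target or its detection calls. The mean trimmed by 2% at each end was 100.04 on both arrays, and no column was left unused.

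Of 31042 probe sets without controls, 20826 had 1 gene symbol in the platform annotation, 436 several and 9780 none. Signals were floored at 20.4 and converted to log2. Each gene was read by its brightest single-symbol probe set and counted as measured when 1 or both arrays exceeded the floor (9114 of 14217 genes). A ratio with 1 array at the floor is a bound, written "at least". Python 3.11.15 with numpy 2.4.6, pandas 2.3.3 and statsmodels 0.14.6 was used, and the counting was tested on simulated data. Alternatives changed the scaling, the floor, the filter or the probe set rule. The number of arrays limits the precision. RefSeq on GRCr8 gave promoter windows and gene order.

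The members and lists were chosen with earlier results of these data known. The text names every member, and of the measured genes of each pathway or marker list those at least 1.5-fold apart and the 2 brightest where so many were measured, and the 3 genes nearest to Itgb3. Other genes in the text were named after their values were seen.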

Additional observations from a re-analysis of the deposited data

How the results depend on the processing

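Across 9 alternatives, Itgb3 and Itgb7 were at least 1.5-fold higher in NKR-P1B+ cells in every one, with log2 differences from 1.66 to 2.62 and from 0.60 to 1.73. With 32 added to each signal and no floor they were 1.66 and 0.77. The count of 2 integrin genes held under 8 alternatives. Scaling to 17 poly-A spike probe sets, whose mean log2 difference was −0.49, moved the median of all measured genes from −0.02 to 0.46 and that of the integrin genes to 0.77. It then counted 7 integrin genes, 32.9% of all genes and 28 pathway genes as higher in NKR-P1B+ cells, and 1.17% and 0 as higher in Ly49s3+ cells. Itgae was then at 0.37, nominally higher in NKR-P1B+ cells, so directions of small differences are relative to the deposited scale. A floor at the 35th percentile gave 8 and 7 pathway genes in the 2 directions and 9.75% of all genes higher in Ly49s3+ cells. A floor at the 65th percentile gave 1 pathway gene and 3.46% of all genes higher there. With 32 added, 1 pathway gene and 2.49% were higher there and 3.03% in NKR-P1B+ cells. No paired analysis was possible because each group is 1 array and the result comes from no test. The 3' to 5' signal ratio of actin controls was 11.9 and 13.2, and that of GAPDH controls was 2.84 and 2.77. What these ratios mean for the integrin probe sets, those below the floor included, was not tested.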
